A study of Mus musculus with 18 samples.

Results

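The question of this comparison was which genes differed between mice carrying 1 mutated copy of Chd2 and wild-type mice in the same direction in 3 brain tissues. All 18 of the 18 libraries of the series were used, 9 from heterozygous animals (Chd2+/-, HET) against 9 from wild-type animals (WT), in 1 additive model with the tissue as a block. The genes were those of the autosomes with enough counts in each of the 3 tissues, 13256 of the 24060 gene symbols in the counts table. Genes with the same direction in each tissue were then described. In 2961 of the 13256 (22.3%), HET was above WT in all 3 tissues or below it in all 3. Directions unrelated between the tissues would also agree in a share of about that size. The count alone is therefore no measure of a shared effect.

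The animals were of strain C57BL/6, and poly(A)-selected RNA was sequenced from dissected tissue. The embryonic groups were the medial ganglionic eminence (MGE, the ventral source of forebrain interneurons) and the cortex at embryonic stage E13.5, with 3 WT and 3 Chd2+/- libraries each. The adult groups were 3 WT and 3 Chd2+/- libraries of hippocampus at postnatal day 45. The nature of the Chd2 allele is not given in the sources used here. No label ties a replicate to an animal of its own, so a p-value here covers the spread among these libraries, which may be technical in part, or in whole outside cortex. In the additive model that spread also holds the differences of the genotype effect between tissues.

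Chd2 encodes an ATP-dependent chromatin remodeller of the chromodomain helicase family, which moves nucleosomes at active genes and has been linked to deposition of the histone variant H3.3. Loss of 1 copy in people causes an epileptic encephalopathy, and in mice it has been studied for effects on interneurons and memory.

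Library totals were 26841671 to 38802765 counts, and the tested genes held 95.05 to 95.75% of them. The summed level of 20 interneuron and ganglionic eminence genes was 3480 to 4470 CPM (counts scaled to library size by TMM) in MGE against 307 to 336 CPM in cortex, and that of 16 excitatory neuron genes was 2680 to 4030 CPM in cortex against 652 to 923 CPM in MGE. The sexes were not balanced over the groups. The summed level of Y-linked genes was 206 to 252 CPM in the 3 HET libraries of MGE and at most 0.0960 CPM in the 3 MGE WT libraries, so in MGE genotype and sex cannot be told apart. In cortex, WT 1, HET 1 and HET 3 carried Y-linked counts, while WT 2, WT 3 and HET 2 had at most 0.0999 CPM. The cortex libraries of a genotype were therefore not all from 1 animal. No hippocampus library carried Y-linked counts beyond 0.109 CPM. Sex-linked genes were outside the comparison. In bulk tissue, fewer cells of a type and less RNA per cell cannot be told apart.

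Chd2 was lower in every HET library than in every WT library of the same tissue. In MGE, Chd2 measured 149, 159 and 171 CPM in WT against 134, 132 and 140.0 CPM in HET. In cortex, Chd2 measured 142, 149 and 142 CPM in WT against 122, 122 and 123 CPM in HET. In hippocampus, Chd2 measured 77.6, 73.4 and 81.4 CPM in WT against 67.5, 70.7 and 68.8 CPM in HET. The 9 HET values lay closely together within each tissue, and the adult tissue held about the same relative gap at a lower level. Over all 18 libraries the log2 fold change of Chd2 was -0.22 (SE 0.04), with -0.24, -0.24 and -0.17 in MGE, cortex and hippocampus. Chd2 had the lowest p of all tested genes (unadjusted p = 2.26e-05), yet with edgeR's quasi-likelihood test and Benjamini-Hochberg adjustment over all 13256 genes its adjusted p was 0.272. DESeq2 gave -0.21 with an adjusted p of 4.58e-05. A difference of its size between the tissues was not detected (edgeR, unadjusted p = 0.683 for the difference).

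With edgeR's quasi-likelihood test and Benjamini-Hochberg adjustment, 0 of 13256 genes (0%) passed an adjusted p of 0.05, while DESeq2 called 7, limma-voom 0, and the average of the 3 tissue contrasts in a fit of 6 group means 4. With the level of Y-linked genes added to the model edgeR called 0 as well (lowest adjusted p = 0.322). Before adjustment, 1001 genes (7.55%) had p under 0.05, 518 of them higher in HET (3.91%) and 483 lower (3.64%). That count was 1911 without cortex HET 3. Of the 2961 genes with one direction, 1588 (12%) were higher and 1373 (10.4%) lower, and 793 genes (5.98%) met both conditions, 445 higher (3.36%) and 348 lower (2.63%). The model used the same libraries for the direction and the p, so the overlap of these counts is a description. Most effects in the additive fit were small, with a median absolute log2 fold change of 0.07 against a median SE of 0.08. The 95th percentile of the absolute log2 fold change was 0.30.

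The stricter description asked that all 3 HET libraries lie on the same side of all 3 WT libraries in each of the 3 tissues. Only 7 genes of 13256 (0.0528%) did so in one direction, the 4 higher genes (0.0302%) Zbtb48, Fbxo34, Asns and Gnb1l and the 3 lower genes (0.0226%) Chd2, Lurap1l and C78339. Asns, Gnb1l, Lurap1l and C78339 were chosen after their values were seen. Within single tissues the share of genes with groups apart was 9.47% in MGE, 11.5% in cortex and 21.3% in hippocampus. Tissues unrelated to each other with these shares would also give a count of about that size in one direction. The count of 7 is therefore no measure of a shared effect, and no test of it was run. Leaving out 1 library, which loosens the condition, gave 9 to 30 genes. It gave 30 without cortex HET 3, 18 without MGE WT 1, 16 without hippocampus HET 2, 15 without MGE HET 1 and 14 without MGE HET 2. It gave 11 to 13 without MGE WT 2, cortex WT 1, WT 2, WT 3 or HET 1, or hippocampus WT 1 or HET 1.

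**Figure D1:**
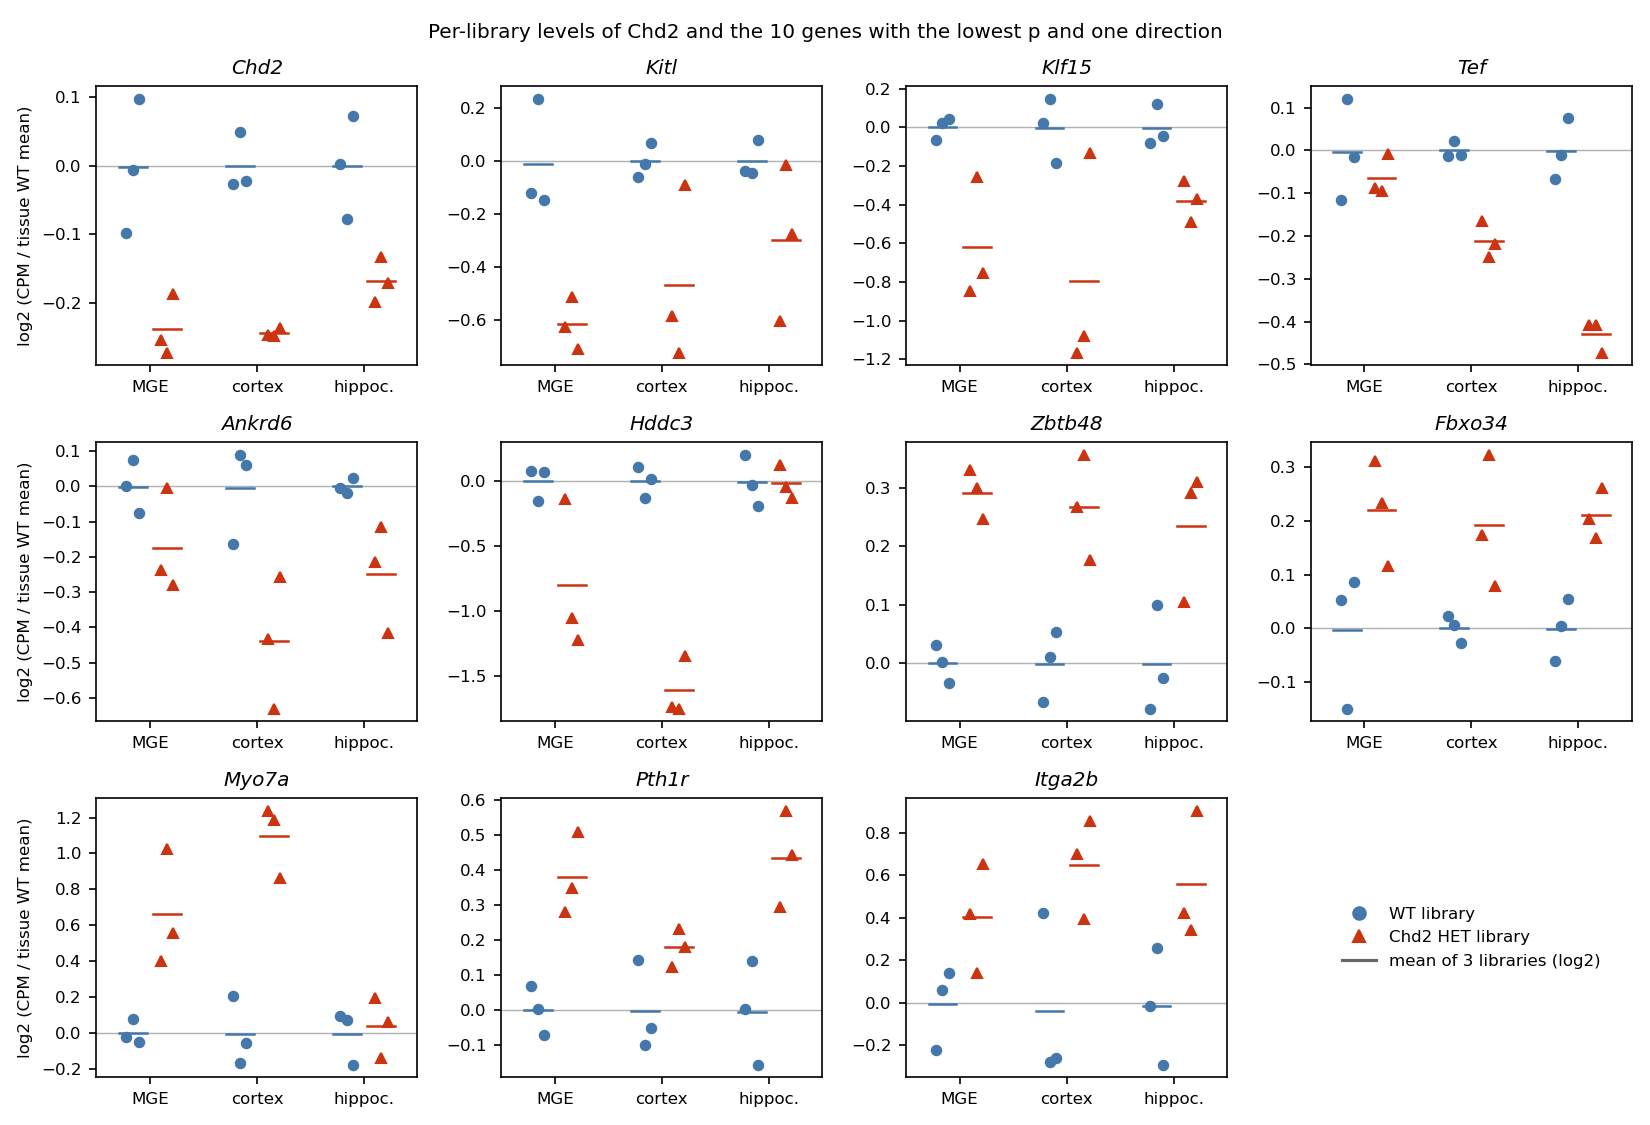
Levels of Chd2 and of the 10 genes with the lowest p and one direction, as log2 of CPM over the WT mean of the tissue (vertical axis), for MGE, cortex and hippocampus (horizontal axis). Circles are WT libraries, triangles HET libraries and short lines means of 3, and for Chd2, Zbtb48 and Fbxo34 no HET library reaches the WT range in any tissue.

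After Chd2, the lower genes with one direction and the lowest p were Kitl, Klf15, Tef, Ankrd6 and Hddc3, of which DESeq2 called Klf15, Kitl and Tef. Kitl (chr10:100015630-100100416, mm10) encodes the ligand of the receptor tyrosine kinase Kit. In MGE, Kitl measured 59.5, 76.2 and 58.4 CPM in WT against 41.9, 45.2 and 39.5 CPM in HET. In cortex, Kitl measured 24.8, 25.7 and 27.1 CPM in WT against 17.2, 15.6 and 24.3 CPM in HET. In hippocampus, Kitl measured 17.0, 16.9 and 18.4 CPM in WT against 11.4, 17.2 and 14.4 CPM in HET. The groups were apart in both embryonic tissues, while hippocampus HET 2 lay inside the WT range. Its log2 fold change was -0.45 (SE 0.09) over all libraries and -0.62, -0.44 and -0.28 by tissue, with an unadjusted p of 1.22e-04 and an adjusted p of 0.531 (edgeR).

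Klf15 (chr6:90462576-90475238), a zinc finger transcription factor of metabolic genes that responds to glucocorticoids, had a wider relative gap than Kitl. In MGE, Klf15 measured 16.003, 17.0 and 17.2 CPM in WT against 9.32, 13.99 and 9.93 CPM in HET. In cortex, Klf15 measured 8.84, 9.66 and 7.67 CPM in WT against 3.89, 4.13 and 7.96 CPM in HET. In hippocampus, Klf15 measured 31.5, 36.2 and 32.3 CPM in WT against 27.5, 23.7 and 25.7 CPM in HET. Cortex HET 3 was the library that overlapped WT, and the other 8 HET libraries lay below all WT libraries of their tissue. For Klf15 the log2 fold change was -0.55 (SE 0.12, adjusted p = 0.531 with edgeR), with -0.60, -0.70 and -0.38 by tissue.

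Ankrd6, an ankyrin repeat protein of Wnt signalling, stood at 53.1 to 59.0 CPM in WT and 46.1 to 55.9 CPM in HET MGE. In cortex the ranges of Ankrd6 were 106 to 126 CPM and 76.6 to 99.1 CPM, and in hippocampus 48.6 to 50.1 CPM and 37.0 to 45.5 CPM. MGE HET 2 was the only HET library of Ankrd6 inside a WT range, and its log2 fold change was -0.28 (SE 0.06, adjusted p = 0.543 with edgeR). Lurap1l had its highest level in hippocampus, at 46.4, 49.2 and 52.7 CPM in WT and 43.9, 34.0 and 42.5 CPM in HET. In cortex, Lurap1l measured 5.88, 4.69 and 5.87 CPM in WT against 2.99, 2.16 and 3.87 CPM in HET, and in MGE it stood at 2.98 to 3.13 CPM and 2.40 to 2.94 CPM. The groups of Lurap1l were apart in each tissue but unevenly so, with -0.20, -0.86 and -0.30 by tissue and -0.44 (SE 0.11, adjusted p = 0.605 with edgeR) in all. C78339 was apart in each tissue by a narrow margin, with 52.5 to 53.6 CPM in WT and 50.8 to 51.9 CPM in HET MGE, and the log2 fold change was -0.12 (SE 0.05, adjusted p = 0.637 with edgeR).

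Hddc3 (chr7:80343104-80350547), which encodes a nucleotide hydrolase of the HD domain type, had its wider gaps in the embryonic tissues. In cortex, Hddc3 measured 33.3, 28.2 and 31.3 CPM in WT against 9.27, 9.19 and 12.2 CPM in HET. In MGE, Hddc3 measured 26.5, 22.5 and 26.3 CPM in WT against 22.8, 12.1 and 10.8 CPM in HET, with HET 1 inside the WT range. In hippocampus, Hddc3 measured 11.1, 9.41 and 8.42 CPM in WT against 10.5, 9.31 and 8.80 CPM in HET, so the groups were mixed there. By tissue the log2 fold changes were -0.72, -1.60 and -0.02, against -0.79 (SE 0.19, adjusted p = 0.605 with edgeR) in the additive fit. The difference between tissues had an unadjusted p of 3.53e-04 and an adjusted p of 0.312 (edgeR).

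The higher genes with one direction and the lowest p were Zbtb48, Fbxo34, Myo7a, Pth1r and Itga2b, of which DESeq2 called Zbtb48, Fbxo34 and Myo7a. Zbtb48 (chr4:152019774-152027671) encodes a zinc finger protein that binds telomere repeats and also acts as a transcription factor. In MGE, Zbtb48 measured 21.6, 21.2 and 20.7 CPM in WT against 26.6, 26.1 and 25.1 CPM in HET. In cortex, Zbtb48 measured 17.6, 18.5 and 19.1 CPM in WT against 22.1, 23.5 and 20.8 CPM in HET. In hippocampus, Zbtb48 measured 10.7, 12.1 and 11.1 CPM in WT against 12.2, 13.9 and 14.1 CPM in HET. The groups were apart in each tissue, most widely in MGE and by the least margin in hippocampus, where WT 2 and HET 1 nearly met. The log2 fold change of Zbtb48 was 0.27 (SE 0.05), with 0.29, 0.27 and 0.24 by tissue, an unadjusted p of 4.11e-05 and an adjusted p of 0.272 (edgeR). Its size was thus close to that of Chd2 with the opposite sign.

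Fbxo34 (chr14:47450421-47531962), an F-box protein that recruits substrates to a ubiquitin ligase, was as even over the tissues. In hippocampus, Fbxo34 measured 108, 113 and 117 CPM in WT against 129, 126 and 135 CPM in HET. In MGE, Fbxo34 measured 27.1, 23.6 and 27.7 CPM in WT against 32.4, 30.7 and 28.3 CPM in HET. In cortex, Fbxo34 measured 22.4, 22.1 and 21.6 CPM in WT against 24.9, 27.6 and 23.3 CPM in HET. Although its level in the adult tissue was several times that of the embryonic ones, the log2 fold changes were 0.22, 0.19 and 0.21. Over all libraries Fbxo34 had 0.21 (SE 0.05, adjusted p = 0.531 with edgeR).

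Myo7a (chr7:98051060-98119524), an unconventional myosin known from hair cells of the inner ear, was high in HET of the embryonic tissues. In MGE, Myo7a measured 14.2, 15.2 and 13.9 CPM in WT against 19.1, 29.5 and 21.3 CPM in HET. In cortex, Myo7a measured 14.9, 11.5 and 12.4 CPM in WT against 30.5, 29.5 and 23.5 CPM in HET. In hippocampus, Myo7a measured 34.0, 33.5 and 28.2 CPM in WT against 36.4, 28.9 and 33.2 CPM in HET, with the groups mixed. Its log2 fold changes of 0.69, 1.10 and 0.04 gave 0.61 (SE 0.13, adjusted p = 0.531 with edgeR) in the additive fit, and the difference between tissues had an unadjusted p of 6.08e-04 and an adjusted p of 0.338.

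Pth1r, the receptor of parathyroid hormone, and Itga2b, an integrin subunit of platelets, were rare transcripts. Pth1r stood at 3.13 to 3.45 CPM in WT and 3.99 to 4.68 CPM in HET MGE, at 7.72 to 9.14 CPM and 9.02 to 9.72 CPM in cortex, and at 3.11 to 3.82 CPM and 4.25 to 5.14 CPM in hippocampus. Itga2b stood at 1.502 to 1.93 CPM in WT and 1.93 to 2.76 CPM in HET MGE, at 1.81 to 2.96 CPM and 2.90 to 3.98 CPM in cortex, and at 1.38 to 2.01 CPM and 2.14 to 3.15 CPM in hippocampus. For both genes the groups were apart in MGE, for Itga2b by less than the rounding of its values, and in hippocampus, and met in cortex, where WT 1 was the high WT library. Log2 fold changes were 0.33 (SE 0.08) for Pth1r and 0.56 (SE 0.14) for Itga2b, each with an adjusted p of 0.605 (edgeR). Red blood cell genes summed to 297 to 1170 CPM over the embryonic libraries and to at most 2.75 CPM in hippocampus. The 4 adult globin genes of that list were at 0 in every library, so the sum does not measure blood in the adult tissue, and the part of blood in the Itga2b values was not tested.

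Asns, the asparagine synthetase of amino acid metabolism, measured 84.0, 80.0 and 85.9 CPM in WT against 87.2, 94.4 and 89.0 CPM in HET hippocampus. In cortex, Asns measured 27.4, 24.3 and 26.3 CPM in WT against 29.4, 30.2 and 30.6 CPM in HET, and in MGE 15.04, 11.5 and 10.7 CPM in WT against 16.6, 15.1 and 15.7 CPM in HET. Every HET library was above its WT libraries, and the log2 fold change was 0.22 (SE 0.06, adjusted p = 0.605 with edgeR). Gnb1l, a WD-repeat protein, stood at 8.06 to 8.68 CPM in WT and 9.12 to 10.1 CPM in HET MGE, at 7.14 to 8.60 CPM and 8.89 to 9.80 CPM in cortex, and at 3.73 to 4.59 CPM and 4.71 to 5.18 CPM in hippocampus. Its groups were likewise apart, and the log2 fold change was 0.24 (SE 0.07, adjusted p = 0.605 with edgeR).

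**Figure D2:**
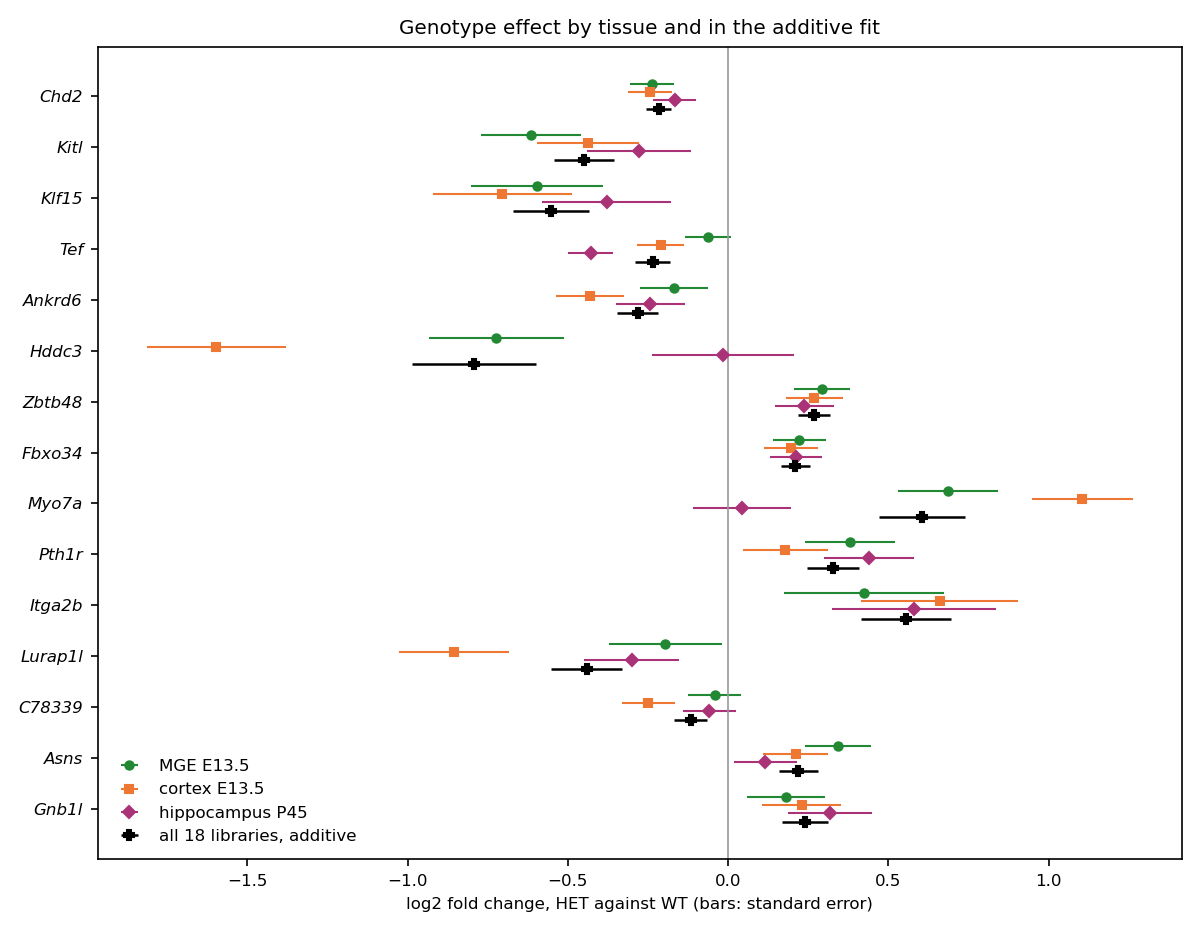
Log2 fold change of HET against WT with its standard error (horizontal axis) for Chd2 and 14 other genes (vertical axis), in MGE, cortex and hippocampus and in the additive fit of 18 libraries. Zbtb48, Fbxo34 and Chd2 have about the same size in each tissue, while Myo7a and Hddc3 are near 0 in hippocampus.

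Genes of the circadian clock and of the endoplasmic reticulum (ER) stress response held several of the lower genes with one direction, and the promoters of their members with the lowest p are shown because each list has a known promoter element. The sequences are from RefSeq (GRCm38.p6), the 250 bases before a transcript start, 5′ to 3′ on the strand of the gene. Capitals mark the E-box CACGTG, the site of the clock activators, or the ER stress element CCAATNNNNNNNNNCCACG, in which N is any base. Tef lies on the plus strand at chr15:81811164-81811413, upstream of 1 of its 2 starts. Nr1d2 lies on the minus strand at chr14:18239107-18239356, Dnajc3 on the plus strand at chr14:118937682-118937931 and Herpud1 on the plus strand at chr8:94386179-94386428.
Tef: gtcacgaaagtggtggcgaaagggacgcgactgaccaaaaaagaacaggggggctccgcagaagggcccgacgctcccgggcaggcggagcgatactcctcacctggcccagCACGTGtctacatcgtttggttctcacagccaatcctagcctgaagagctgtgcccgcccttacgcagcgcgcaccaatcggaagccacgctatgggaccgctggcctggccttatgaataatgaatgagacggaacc
Nr1d2: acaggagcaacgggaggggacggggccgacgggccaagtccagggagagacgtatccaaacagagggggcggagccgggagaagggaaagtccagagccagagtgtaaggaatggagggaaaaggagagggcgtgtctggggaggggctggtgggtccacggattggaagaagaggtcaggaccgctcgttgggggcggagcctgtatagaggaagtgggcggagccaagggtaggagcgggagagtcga
Dnajc3: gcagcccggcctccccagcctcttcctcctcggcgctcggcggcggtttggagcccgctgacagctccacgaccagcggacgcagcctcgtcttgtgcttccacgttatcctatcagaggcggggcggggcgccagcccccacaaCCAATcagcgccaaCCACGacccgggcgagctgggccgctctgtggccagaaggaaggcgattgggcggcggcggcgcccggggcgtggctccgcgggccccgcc
Herpud1: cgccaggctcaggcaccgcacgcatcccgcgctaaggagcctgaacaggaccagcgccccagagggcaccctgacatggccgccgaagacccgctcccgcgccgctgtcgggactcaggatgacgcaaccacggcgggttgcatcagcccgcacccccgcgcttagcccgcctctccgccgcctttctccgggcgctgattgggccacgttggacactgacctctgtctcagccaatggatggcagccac
Both strands were searched. The E-box was in the printed Tef window, 132 bases before the start, and in the window of its other start, in the window of Bhlhe41, and not in that of Nr1d2. Of 26 windows of 17 clock genes 6 held it (23.1%), against 1978 of all 32851 windows of that length (6.02%). The ER stress element was in the Dnajc3 window, 86 bases before the start, and the Herpud1 window held no full match. The Herpud1 window ends, however, inside a stretch with every letter of the element but the last. The base after it was not searched, so the element is not shown to be absent there. No other form of ER stress site was searched for in any window. It stood in 6 of 16 windows of the ER list (37.5%) and in 37 of all windows (0.113%). A match is a description of the letters and not of binding.

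The clock list, 20 tested genes of the molecular day and night oscillator and its outputs, had 8 lower genes and 0 higher at an unadjusted p under 0.05, with 6 lower and 1 higher in one direction. Over all tested genes 3.64% were lower and 3.91% higher at that level, and 10.4% were lower and 12% higher in each tissue. The same shares stand beside the counts of every list below. The clock list had a median log2 fold change of -0.13 over all libraries, against 0.00 over all tested genes. By tissue the median of the list was -0.05, -0.05 and -0.43 in MGE, cortex and hippocampus. Of the 20 clock genes 13 lay below 0 and 7 above. Without the hippocampus libraries 3 clock genes were lower and 1 higher, with a median of -0.06. Tef, an output transcription factor with the E-boxes above, measured 483, 503 and 534 CPM in WT against 382, 382 and 365 CPM in HET hippocampus. In cortex, Tef measured 53.7, 54.9 and 53.7 CPM in WT against 48.3, 45.5 and 46.5 CPM in HET, and in MGE 58.1, 68.3 and 62.2 CPM in WT against 59.1, 58.9 and 62.5 CPM in HET. The groups were apart in cortex and hippocampus and mixed in MGE, with -0.06, -0.21 and -0.43 by tissue and -0.24 (SE 0.05, unadjusted p = 2.93e-04, adjusted p = 0.543 with edgeR) in all.

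Nr1d2, a nuclear receptor that represses clock activators, had -0.31 (SE 0.08), with 78.6, 88.0 and 98.6 CPM in WT and 53.7, 75.0 and 67.1 CPM in HET hippocampus. In the embryonic tissues Nr1d2 stood at 17.5 to 23.9 CPM in WT and 14.02 to 18.8 CPM in HET, apart in MGE and mixed in cortex. Per2, a repressor of the core loop, measured 65.7, 103 and 103 CPM in WT against 50.03, 39.4 and 41.4 CPM in HET hippocampus, and its groups were mixed in both embryonic tissues. Its log2 fold changes were -0.22, -0.19 and -1.05 by tissue and -0.51 (SE 0.14) in all, and the difference between tissues had an adjusted p of 0.461 (edgeR). Bhlhe41, another repressor, had -0.47 (SE 0.12) and stood outside the shared direction, with 0.12, -0.66 and -0.59 by tissue and at most 1.251 CPM in the embryonic libraries. Arntl, of the same list, went the other way in hippocampus, at 28.1, 29.8 and 28.4 CPM in WT against 49.6, 48.3 and 49.9 CPM in HET. In MGE the HET libraries of Arntl lay below those of WT, and in cortex its groups overlapped. The hour at which the tissues were taken is not given in the sources used here, and its part in these values was not tested.

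Of 19 ER stress genes, the chaperones and factors that cells make when unfolded protein builds up, 7 were lower and 0 higher at an unadjusted p under 0.05, with 6 lower and 1 higher in one direction. The median was -0.13, and 0.01, -0.05 and -0.40 by tissue, and 17 of the 19 lay below 0. Among all tested genes 3.64% were lower at that level and 10.4% were lower in each tissue. Without the hippocampus libraries 2 of the ER genes were lower and 1 higher, with a median of 0.01 over 20 tested. Dnajc3, a co-chaperone of the ER, measured 74.6, 80.9 and 86.5 CPM in WT against 65.5, 62.4 and 58.4 CPM in HET hippocampus. In cortex, Dnajc3 measured 48.1, 44.7 and 44.4 CPM in WT against 38.6, 41.2 and 43.3 CPM in HET, and in MGE 44.8, 45.9 and 37.4 CPM in WT against 36.5, 39.4 and 39.96 CPM in HET. It was apart in cortex and hippocampus, overlapped in MGE through WT 3, and the log2 fold change was -0.23 (SE 0.06, adjusted p = 0.605 with edgeR). Herpud1, of the machinery that removes misfolded ER proteins, had -0.25 (SE 0.07), with 52.8 to 62.6 CPM in WT and 42.0 to 45.5 CPM in HET hippocampus and overlapping groups in MGE and cortex. Dnajb9 at -0.27 (SE 0.08) and Manf at -0.25 (SE 0.08) had one direction too, Dnajb9 with its larger value in MGE (-0.46) and Manf in hippocampus (-0.48).

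Genes of DNA replication had the highest share of members with one direction among lists of 10 or more tested genes. Of 29 tested, 15 were higher in each tissue and 0 lower, 10 were higher and 0 lower at an unadjusted p under 0.05, and all 29 had a log2 fold change above 0. Over all tested genes 12% were higher in each tissue and 3.91% were higher at that level of p. The median was 0.15, made up of 0.06, 0.39 and 0.09 in MGE, cortex and hippocampus. Without cortex HET 1 and HET 2, the libraries with high levels of these genes, 1 was higher, 24 lay above 0 and the median was 0.05, while without cortex HET 3 14 were higher. Mcm2, a subunit of the replicative helicase, measured 171, 193 and 173 CPM in WT against 270.3, 286 and 159 CPM in HET cortex. In MGE, Mcm2 measured 362, 322 and 278 CPM in WT against 327, 409 and 370.5 CPM in HET, and in hippocampus 6.40, 7.95 and 6.84 CPM in WT against 8.01, 9.31 and 7.93 CPM in HET. Cortex HET 3 was below all 3 WT libraries of its tissue and the groups overlapped in each tissue, so the log2 fold change of 0.29 (SE 0.10) rests on means. Mcm6 of the same helicase had 0.38 (SE 0.13) with 0.02 in MGE, and the polymerase subunit Pole and the initiation factor Mcm10 had 0.31 (SE 0.12) and 0.27 (SE 0.10).

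At an unadjusted p under 0.05, 3.91% of all tested genes were higher and 3.64% lower, with 12% higher in each tissue. Among 32 cell cycle genes 4 were higher and 1 lower at that level, with a median of 0.11. Without cortex HET 1 and HET 2, 1 was higher and 3 lower, with a median of -0.05. E2f1, a transcription factor of S phase entry, had 0.32 (SE 0.12) and the mitotic kinase Plk1 0.33 (SE 0.14), while the cyclin-dependent kinase inhibitor Cdkn1b had -0.14 (SE 0.06), each with one direction. Among 22 genes of double-strand break repair 2 were higher and 0 lower, and 6 were higher in each tissue. Without cortex HET 3 8 were higher, and without cortex HET 1 and HET 2 1 was, with 9 rather than 18 above 0 and a median of -0.02 in place of 0.08. Tdp2, which removes trapped topoisomerase from DNA ends, measured 31.6, 31.3 and 29.4 CPM in WT against 59.1, 53.3 and 46.3 CPM in HET cortex. In MGE and hippocampus the groups of Tdp2 overlapped, and its log2 fold changes were 0.13, 0.78 and 0.19, with 0.37 (SE 0.10, adjusted p = 0.605 with edgeR) in all.

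Other chromatin genes showed little in common over the tissues. Of the 10 CHD remodellers, Chd2 was lower and Chd1l, a relative involved in DNA repair, was higher at an unadjusted p under 0.05, at 0.20 (SE 0.08). Chd1, the closest relative of Chd2, had 0.17 (SE 0.09) and Chd9 -0.10 (SE 0.06). Of 11 genes for histone H3.3 and its chaperones 0 passed that level, with Nasp at 0.16 (SE 0.08) and Asf1b at 0.24 (SE 0.13), while 4 were higher without cortex HET 3 and 2 without the MGE libraries. Likewise 0 of 26 BAF remodelling complex genes passed it, with Smarca2 at -0.16 (SE 0.09), and 2 were lower without cortex HET 1 and HET 2. Of 29 Polycomb genes 2 were higher, Cbx2 at 0.37 (SE 0.13) and Cbx8 at 0.14 (SE 0.06), and without cortex HET 1 and HET 2 1 was higher and 1 lower. Cbx2 stood at 125, 117 and 55.5 CPM in the 3 HET cortex libraries against 57.2 to 64.9 CPM in WT, so HET 3 again lay below WT.

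Neuronal lists had medians below 0, which moved toward or past 0 without cortex HET 1 and HET 2. The median of 11 GABA receptor genes turned from -0.09, with 1 above 0, to 0.05, with 9 above 0, and that of 22 presynaptic release genes from -0.06 to 0.01. Of all tested genes, 3.91% were higher and 3.64% lower at an unadjusted p under 0.05, and 10.4% were lower in each tissue. The 16 tested interneuron and ganglionic eminence genes had 0 higher and 0 lower, with 4 lower and 1 higher in each tissue. Their median was -0.20 (-0.04 without cortex HET 1 and HET 2), with -0.03, -0.72 and -0.04 by tissue, and 14 lay below 0. Of 15 excitatory projection neuron genes 2 were lower and 0 higher, and 5 were lower in each tissue. Their median was -0.19 (-0.10 without those libraries), and 12 lay below 0. Neuronal differentiation genes had 1 higher and 2 lower of 21, 8 lower in each tissue and a median of -0.10. The transcription factor Sox11 had -0.18 (SE 0.08) and the neurofilament Nefm 0.30 (SE 0.13). Without those 2 libraries the median was -0.01 and 0 passed either way. Glutamate receptor genes had 1 lower of 20, 6 lower in each tissue and a median of -0.18 (-0.06 without those libraries), with the NMDA receptor subunit Grin2d at -0.29 (SE 0.13). Voltage-gated channels had 1 lower of 28, 8 lower in each tissue and a median of -0.09 (-0.02 without those libraries), with the potassium channel Kcnq3 at -0.39 (SE 0.16) and -0.05, -0.95 and -0.20 by tissue. The 30 tested genes of epileptic encephalopathy had a median of -0.05 (-0.01 without cortex HET 1 and HET 2), with 7 lower and 1 higher in each tissue, Chd2 itself and Grin2d among the lower ones. Wnt7b, a Wnt ligand of the forebrain, had one direction with -0.42, -0.25 and -0.30 by tissue and -0.32 (SE 0.08, unadjusted p = 0.00115, adjusted p = 0.605 with edgeR). It was the 1 lower gene of 26 tested Wnt genes, of which 0 were higher. The median of the Wnt list was 0.03, with 17 above 0 and 9 below. Of 24 Notch genes 2 were higher and 0 lower, the effector Hey1 with 0.32 (SE 0.11) and the ligand Dll3 with 0.32 (SE 0.12). Without cortex HET 1 and HET 2, 0 Notch genes were higher and 2 lower, and the median turned from 0.06 to -0.01, while without cortex HET 3 5 were higher.

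Of 16 immediate early genes 1 was higher and 4 lower, and without the hippocampus libraries 2 were higher and 0 lower. They included Fosl2 with -0.45 (SE 0.14) and Ier2 with 0.25 (SE 0.09), each in one direction. Of the 46 ribosomal protein genes 1 was higher and of the 44 oxidative phosphorylation genes 3, with medians of 0.00 and -0.01 and Cyc1 at 0.12 (SE 0.04). Without cortex HET 1 and HET 2 both medians were 0.06, with 0 and 3 genes higher. In each of the 32 lists, 0 members passed the adjusted threshold with edgeR.

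**Figure D3:**
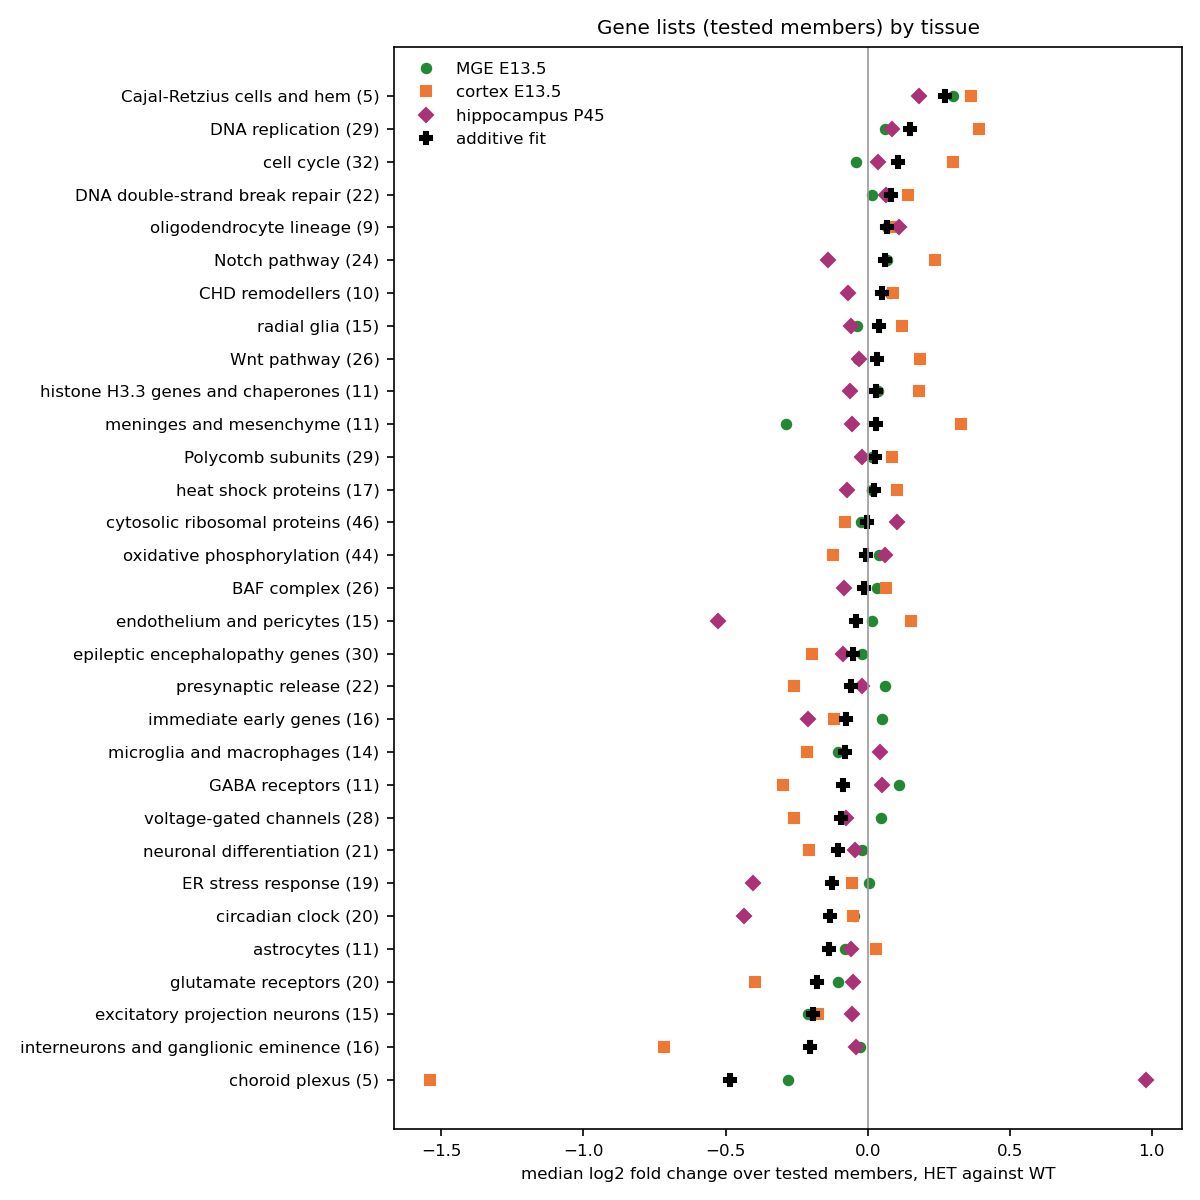
Median log2 fold change of HET against WT (horizontal axis) over the tested members of each list with 5 or more (vertical axis, number tested in brackets), by tissue and in the additive fit. The medians of the additive fit run from -0.48 for choroid plexus to 0.27 for Cajal-Retzius cells and hem, and within the clock and ER stress lists hippocampus has the lowest median of the 3 tissues, as it has for endothelium and pericytes at -0.53.

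Markers of cell types that the dissected tissues could hold were followed beside these values. For all tested genes, 3.64% were lower and 3.91% higher at an unadjusted p under 0.05, and 10.4% were lower in each tissue. Of 11 tested astrocyte genes 4 were lower and 0 higher, and 3 were lower in each tissue, while without the MGE libraries 2 were lower and 1 higher of 13. By tissue the median of the astrocyte list was -0.08, 0.03 and -0.06 in MGE, cortex and hippocampus. Of 15 radial glia genes 2 were lower and 0 higher, 9 lay above 0 and 6 below, and the median was 0.04. Slc1a3, the glutamate transporter of radial glia and astrocytes, measured 70.2, 88.8 and 74.1 CPM in WT against 54.1, 60.0 and 47.5 CPM in HET MGE. In cortex, Slc1a3 measured 125, 121 and 114 CPM in WT against 88.2, 83.9 and 119.6 CPM in HET, and in hippocampus 596, 628 and 629.7 CPM in WT against 561, 598 and 554 CPM in HET. The groups were apart in MGE alone, and the log2 fold change was -0.31 (SE 0.08, adjusted p = 0.605 with edgeR). Mlc1, a membrane protein of astrocyte endfeet, had -0.90, -0.52 and -0.01 by tissue and -0.46 (SE 0.12) in all. Summed over the 14 astrocyte genes the level was 607 to 699 CPM in WT and 582 to 636 CPM in HET MGE, 881 to 1060 CPM and 998 to 1160 CPM in cortex, and 6860 to 7500 CPM and 6570 to 7000 CPM in hippocampus.

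Of 15 endothelial and pericyte genes 3 were lower, against 3.64% over all tested genes. They were the tight junction protein Cldn5 with -0.33 (SE 0.11), the efflux pump Abcb1a with -0.32 (SE 0.11) and the lipid transporter Mfsd2a with -0.30 (SE 0.11). Without the hippocampus libraries 3 genes of this list were higher and 0 lower. Their summed level was 423 to 438 CPM in WT and 293 to 321 CPM in HET hippocampus, where the groups were apart, and overlapped in MGE and cortex. Choroid plexus genes summed to 22.9 to 1650 CPM over the cortex WT libraries and 25.1 to 482 CPM over cortex HET, and their member Aqp1 had -1.27 (SE 0.41). Meningeal genes summed to 537 to 929 CPM in cortex WT and 746 to 1050 CPM in cortex HET, with Col3a1 at 0.36 (SE 0.17), and 2 of 11 were higher, or 0 without cortex HET 1 and HET 2. Crabp2, a carrier of retinoic acid and a member of that list, had 0.72 (SE 0.21) and stood at 33.0, 33.1 and 12.2 CPM in HET cortex against 11.9 to 13.499 CPM in WT. The adult globin genes Hba-a1, Hba-a2, Hbb-bs and Hbb-bt were at 0 in all libraries. The part of these cell types in the gene values above was not tested.

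The neighbours of Chd2 on chromosome 7 had values on both sides of 0. Chd2 lies at chr7:73426638-73541830 (mm10). Of the 12 tested genes within 5 Mb, 0 had an unadjusted p under 0.05 (edgeR), and the 5 nearest on each side, the farthest 5.19 Mb away, ran from -0.22 to 0.28 with a lowest p of 0.105. The noncoding RNA gene 1810026B05Rik, known as Chaserr, overlaps the upstream end of Chd2 and has been described as a repressor of it. It had 0.01 (SE 0.05) over all libraries, with 35.5 to 39.8 CPM in WT and 33.5 to 38.9 CPM in HET cortex, and which of the 2 overlapping genes a read was given to is not stated. The other near genes with the larger values, A730056A06Rik at 0.28 (SE 0.17), Rgma, a guidance molecule, at 0.26 (SE 0.15) and the nuclear receptor Nr2f2 at -0.22 (SE 0.22), lay within about 1 to 2 SE of 0.

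Farther out, 14 of 145 genes at 5 to 20 Mb (9.66%) and 61 of 890 beyond 20 Mb (6.85%) had an unadjusted p under 0.05. Hddc3, 6.80 Mb away, and Myo7a, 24.5 Mb away, both belonged to the genes of lowest p. Chromosome 7 as a whole had 76 of 1048 such genes (7.25%), 52 higher and 24 lower, within the range of 5.97% to 9.63% over all autosomes.

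**Figure D4:**
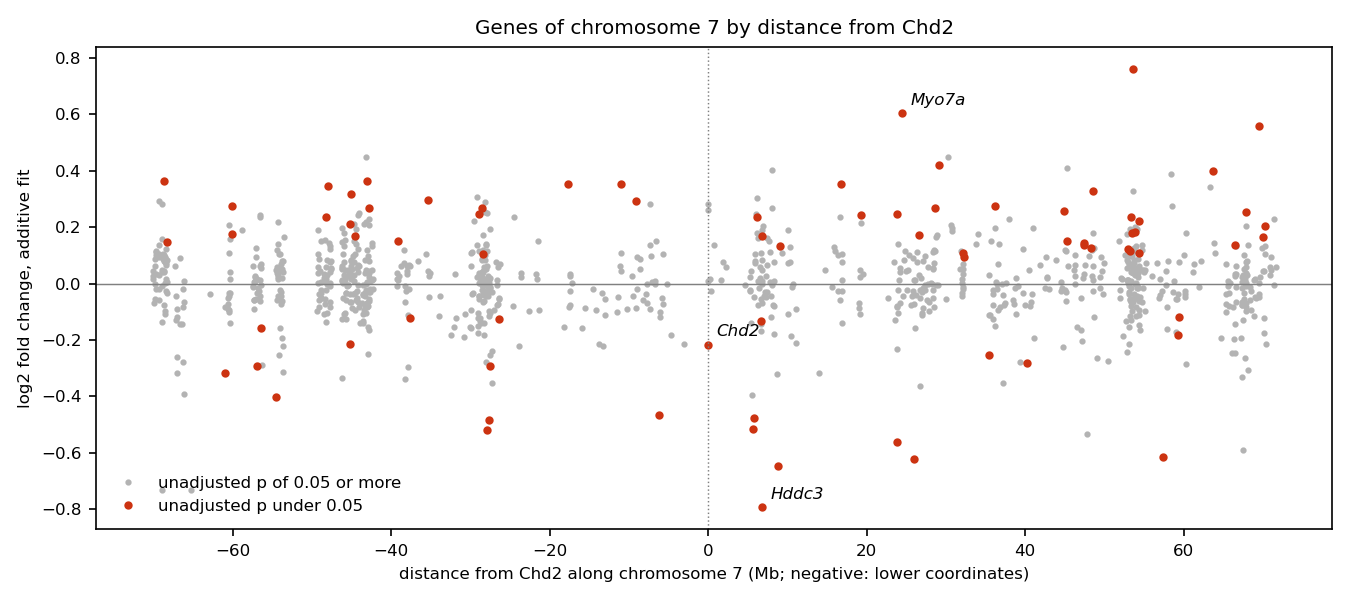
Log2 fold change in the additive fit (vertical axis) of the 1048 tested genes of chromosome 7 by distance from Chd2 in Mb (horizontal axis). Red points have an unadjusted p under 0.05, and within 5 Mb Chd2 alone does.

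Log2 fold changes were only weakly related between the tissues. Over 13255 genes without Chd2, the log2 fold changes of MGE and cortex had Pearson r = 0.199 (Spearman rho 0.214), those of MGE and hippocampus -0.078 (-0.157) and those of cortex and hippocampus -0.114 (-0.141). These are descriptions across genes, which are not independent replicates. A direct test of the difference between tissues (edgeR's quasi-likelihood test, 2 degrees of freedom, Benjamini-Hochberg adjustment) called 2 genes (0.0151%), and 1334 genes (10.1%) had an unadjusted p under 0.05. In place of 2, the test called 2178 genes without cortex HET 3, 11 without MGE WT 1 and 8 without MGE HET 2. It called 1 without MGE WT 2, MGE HET 3, cortex WT 2, cortex WT 3, cortex HET 1, hippocampus WT 2, hippocampus HET 1 or hippocampus HET 3.

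Tmem163, a zinc transporter, was one of the called genes and measured 109, 131 and 115 CPM in WT against 14.03, 11.7 and 12.2 CPM in HET hippocampus. In cortex, Tmem163 measured 6.36, 8.63 and 7.14 CPM in WT against 5.63, 8.96 and 8.78 CPM in HET, and in MGE it was at most 1.93 CPM. Only the adult groups were apart, so its log2 fold changes were 0.13, 0.08 and -3.22, with an adjusted p of 7.56e-05 for the difference between tissues (edgeR). Lpl, the lipoprotein lipase, was apart in each tissue but not in one direction. In MGE, Lpl measured 11.9, 12.4 and 14.4 CPM in WT against 16.4, 17.4 and 18.1 CPM in HET. In cortex, Lpl measured 37.3, 32.4 and 28.7 CPM in WT against 20.7, 23.2 and 23.9 CPM in HET. In hippocampus, Lpl measured 46.3, 37.6 and 36.0 CPM in WT against 63.0, 59.1 and 79.5 CPM in HET. HET was thus above WT in MGE and hippocampus and below it in cortex, with 0.42, -0.54 and 0.75 and an adjusted p of 0.0496 for the difference (edgeR). That call was lost with upper-quartile scaling (adjusted p = 0.0609), with TMM within each tissue (0.0522) and without cortex HET 1 and HET 2 (0.187). Leaving out 1 library gave an edgeR adjusted p of 0.002 to 0.16 for Lpl. The call was lost without MGE WT 2, HET 1 or HET 3, any of cortex WT 1, WT 2, WT 3, HET 1 or HET 2, or hippocampus WT 2, WT 3, HET 1 or HET 3. In all, 34 of the 13256 tested genes had groups apart in all 3 tissues, of which the 7 given above had one direction throughout and Lpl did not. Within single tissues the shares were 9.47%, 11.5% and 21.3% in MGE, cortex and hippocampus. Unrelated tissues with these shares would also give a count of about that size.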

How the data were processed

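RNA was measured in 18 libraries, 3 WT and 3 Chd2+/- from each of 3 tissues. The authors deposited raw counts per gene symbol (whole numbers, no normalization). The submitters' processing notes name build mm10 and the tools TopHat2 2.1.1, FastQC, Trimmomatic, DESeq2 and SAMtools. Which counting program, annotation and strand option were used is not given in the sources used here. Reads of overlapping genes cannot be told apart without the strand. Replicates differed by 5.79 to 101 times counting noise (squared difference per gene), so no library was a copy of another.

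Of 24060 symbols, 22799 were placed on autosomes (GENCODE M21, then RefSeq symbols and synonyms). Genes passing filterByExpr (minimum count 10, minimum total 15) within each tissue were kept. edgeR 4.0.16 in R 4.3.3 scaled libraries by TMM and fitted tissue plus genotype with a robust quasi-likelihood F test and Benjamini-Hochberg adjustment over 13256 genes, with 0.05 as threshold. A fold change is HET over WT, and its SE is the absolute log2 fold change over the square root of F. Effects by tissue and their difference came from a fit of 6 group means. The procedure was tested on simulated data.

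Named genes were Chd2, then genes past the threshold with one direction, filled up to 5 each way by lowest p. To these came the 5 nearest genes on each side of Chd2, up to 4 of lowest p per list and up to 5 for the difference between tissues. Members and lists were chosen with earlier results of these data known.

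Alternatives were RLE, upper-quartile and within-tissue TMM scaling, no filter, DESeq2 1.42.0, limma-voom (limma 3.58.1), the average of the tissue contrasts, the replicate number as a block, the Y-linked level as covariate, and leaving out each tissue or library. Leaving out cortex HET 1 and HET 2 together was chosen after seeing the data, as were all alternatives of the gene lists and of the counts by direction, overlap and unadjusted p.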

Additional observations from a re-analysis of the deposited data

Results flagged for a closer look

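The genotype effect of Tmem163 differed between tissues by a direct test (edgeR's quasi-likelihood test with Benjamini-Hochberg adjustment, adjusted p = 7.56e-05), with log2 fold changes of 0.13, 0.08 and -3.22 in MGE, cortex and hippocampus. The same test gave an adjusted p of 0.0496 for Lpl, with 0.42, -0.54 and 0.75. The Lpl call was lost with upper-quartile scaling (edgeR adjusted p = 0.0609), TMM within each tissue (0.0522), the replicate number as a block (0.221) and leaving out cortex HET 1 and HET 2 (0.187). Leaving out 1 library gave 0.002 to 0.16, above the threshold for 12 of 18 libraries. Y-linked genes, which were left out of the comparison, had a mean summed level of 223 CPM in the 3 MGE HET libraries and lay near 0 in the 3 MGE WT libraries.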

How the results depend on the processing

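The count of genes past the adjusted threshold was 0 with edgeR's quasi-likelihood test and in 29 of 31 alternatives, among them RLE, upper-quartile and within-tissue scaling, no filter, limma-voom (lowest adjusted p = 0.0673), the Y-linked covariate, each tissue or library left out, and cortex HET 1 and HET 2 left out together. Before adjustment that count was 677 to 1911 over the alternatives. DESeq2 called 7 genes, all 7 in one direction, and the average of the tissue contrasts called 4 (Tmem163, Myo7a, Hddc3 and Neurog2), 3 in one direction. The cause was not tested. Chd2 kept its direction in 31 of 31 alternatives, from -0.24 to -0.20 and from -0.23 to -0.20 with 1 library left out, with DESeq2 at -0.21 past the threshold. The count of genes whose effect differed between tissues, 2, was 1 with upper-quartile scaling, 1 with TMM within each tissue, 5 without cortex HET 1 and HET 2, and 1 to 2178 with 1 library left out.

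Same-numbered WT and HET libraries correlated at -0.279 to 0.262 in their deviations, so the numbers were not taken as pairs, and not every library correlated best with its own number. With the replicate number as a block, 0 genes passed (lowest adjusted p = 0.735), 867 had an unadjusted p under 0.05, Chd2 stood at -0.22 and 1 gene differed between tissues, with Lpl lost (adjusted p = 0.221).

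Of 2666 values of 86 other genes under the alternatives, 2640 kept their direction and side of the threshold, 10 in 9 genes moved past the threshold and 16 in 7 genes reversed. The additive fit called 0 genes, so an alternative that also called 0 could not change a side. Of the 31 alternatives 18 left out 1 library alone. Sizes could move within the 2640, as for Hddc3 from -1.155 to -0.383. With limma-voom 1810026B05Rik had -0.0070 and Fabp7 -0.10. Without hippocampus 1810026B05Rik had -0.035, Tmem163 0.10, Lpl -0.064, Fabp7 -0.38 and Arntl -0.22. Aldoc had 0.0034 without MGE and Sox4 0.0052 without cortex. Leaving out 1 library gave 1810026B05Rik -0.0086 to 0.030. The SE ran from 0.05 to 0.19 from the 10th to the 90th percentile of genes. The parts of depth and of spread between libraries in these SE were not tested.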
